A study of Mus musculus with 9 samples.

Results

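Olfactory bulbs of mice that had breathed formaldehyde (FA), an irritant gas, on 7 days were compared with bulbs of control mice, to ask which microRNAs (miRNAs) differ after the longer exposure in the study. The FA 7 days group (n = 3 arrays) held male ICR mice, an outbred strain, 8 weeks old, kept in a chamber with FA at 3 ppm for 6 hours per day. The control group (n = 3) held male ICR mice of 8 weeks kept alike without the gas. Mice exposed on 1 day (FA 1 day, n = 3) entered the same fit as a further estimate of the spread. The labels do not say that each array holds a separate animal, on which day control bulbs were taken, or which arrays shared a slide, so the p-values measure the spread between these arrays, and no batch was tested. The array carries 1027 probes named as mouse miRNAs, and 423 of them were kept because their mean foreground minus background intensity was at least 30, here called detected, on all 3 arrays of FA 7 days or on all 3 of control. Of the 423, 355 met this in both groups, 23 only in FA 7 days and 45 only in control, and the members of these last sets had to be dimmer on at least 1 array of the other group. At the edge of the rule, miR-376c-3p and miR-381-5p entered with a lowest value of 20.0 and 2.0 in FA 7 days, against 30.5 and 30.25 in control, while miR-16-1-3p (29.5 in FA 7 days, 25.25 in control) and miR-221-5p (14.75 in FA 7 days, 29.75 in control) stayed out. Among the kept probes, 12 carry more than 1 miRNA name and are called here by the first.

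miRNAs are short RNAs that guide Argonaute proteins to messenger RNAs, mostly through pairing of the seed near their 5′ end, and lower the output of those messages. In the olfactory bulb, where axons of nasal sensory neurons end and where new interneurons arrive throughout life, miRNAs take part in the birth and identity of neurons, and those of glia, vessels and blood cells are measured along with them. In whole bulb RNA, fewer cells of a type and less of a miRNA per cell cannot be told apart. Neuronal markers were among the brightest probes: miR-124-3p, the most abundant miRNA of neurons, was the brightest on every array, and miR-9-5p and miR-128-3p were detected on 6 of 6 arrays. Of the oligodendrocyte miRNAs, miR-338-3p was detected on 6 of 6 and miR-219-5p on 5 of 6. Also detected on 6 of 6 were miR-451 of red blood cells, miR-142-3p of leukocytes and miR-126-3p of endothelium, so the bulbs held blood and vessels as well. Liver miR-122-5p was detected on 0 of 6 arrays. Of the muscle markers, miR-206-3p was detected on 0 of 6, miR-1a-3p on 2 of 6 and miR-133a-3p on 4 of 6. Of the epithelial and ciliated-cell markers, miR-449a-5p was detected on 0 of 6, miR-205-5p on 3 of 6, miR-34c-5p on 5 of 6, and miR-203-3p and miR-200a-3p on 6 of 6. miR-302a-3p, known from embryonic stem cells, was detected on 6 of 6 at an intensity of 69.0 to 355.

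The sequences below belong to the miRNAs that the comparison turns on most, with some relatives that are set beside them. They are the mature RNAs of RefSeq (GRCm38.p6), read 5′ to 3′, and the capitals mark the seed, bases 2 to 8.
miR-146b-5p: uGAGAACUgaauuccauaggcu
miR-146a-5p: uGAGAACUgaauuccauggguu
miR-148a-3p: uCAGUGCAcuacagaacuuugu
miR-152-3p: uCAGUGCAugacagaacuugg
miR-148b-3p: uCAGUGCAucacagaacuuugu
miR-7b-5p: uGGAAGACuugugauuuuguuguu
miR-7a-5p: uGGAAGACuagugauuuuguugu
miR-25-3p: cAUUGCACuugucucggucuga
miR-24-3p: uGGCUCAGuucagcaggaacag
miR-181a-1-3p: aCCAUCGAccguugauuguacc
miR-204-5p: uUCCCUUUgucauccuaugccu
miR-204-3p: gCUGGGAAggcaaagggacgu
miR-133b-3p: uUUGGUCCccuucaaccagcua
miR-1947-3p: gCACUGAGcuagcucucccucc
miR-3104-3p: aCGCUCUGcuuugcucccccaga

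miR-146b-5p and miR-146a-5p share their seed and 20 of 22 bases, miR-148a-3p shares 20 of 22 with miR-148b-3p and 18 of the first 21 with miR-152-3p, and miR-7b-5p and miR-7a-5p 22 of the first 23. How well a probe separates such relatives is not given in the sources used here. miR-146b-5p lies at chr19:46342790-46342811 on the plus strand, within the span of the long non-coding RNA gene Gm36493, and miR-146a-5p on chr11:43374435-43374456 on the minus strand. miR-148a-3p lies at chr6:51269829-51269850 (minus strand) and miR-152-3p at chr11:96850439-96850459 (plus strand), within the span of Copz2. miR-25-3p comes from chr5:138165332-138165353 (minus strand), within the span of the replication gene Mcm7. The arms of the miR-204 hairpin lie at chr19:22750610-22750631 and chr19:22750649-22750669 (plus strand), within the span of the ion channel gene Trpm3, and share no seed. In all, 327 of the 423 kept probes matched a RefSeq mature sequence by name.

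No miRNA differed between FA 7 days and control beyond the spread of the arrays: in limma's moderated test on all 9 arrays, 0 of the 462 probes tested (0%) had a Benjamini-Hochberg adjusted p under 0.05, and the smallest adjusted p was 0.701. The 462 are the probes detected on all 3 arrays of any of the 3 groups, and include all 423. At an unadjusted p under 0.05 there were 21 (4.55% of those tested), all among the 423, with 14 higher (3.03%) and 7 lower (1.52%) after 7 days. The values of the groups did not overlap for 47 of the 423 probes, against 49 of the 462 tested (10.6%). In 39 of the 47 FA 7 days was higher, against 41 of the 462 tested (8.87%). In 8 of the 47 it was lower, against 8 of the 462 tested (1.73%). An exact permutation test of 3 against 3 arrays cannot give a p below 0.10. Over the 423, the median log2 difference, FA 7 days minus control, was 0.04, with 241 above 0 and 182 below, and the 10th and 90th percentiles were -0.46 and 0.56. The largest was 1.42 and the smallest -1.50, and a difference of more than 1, or 2-fold, was met by 7 probes upward and 6 downward. With a median standard error (SE) of 0.28, the 95% interval of a typical difference reached 0.63 to either side.

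**Figure D1:**
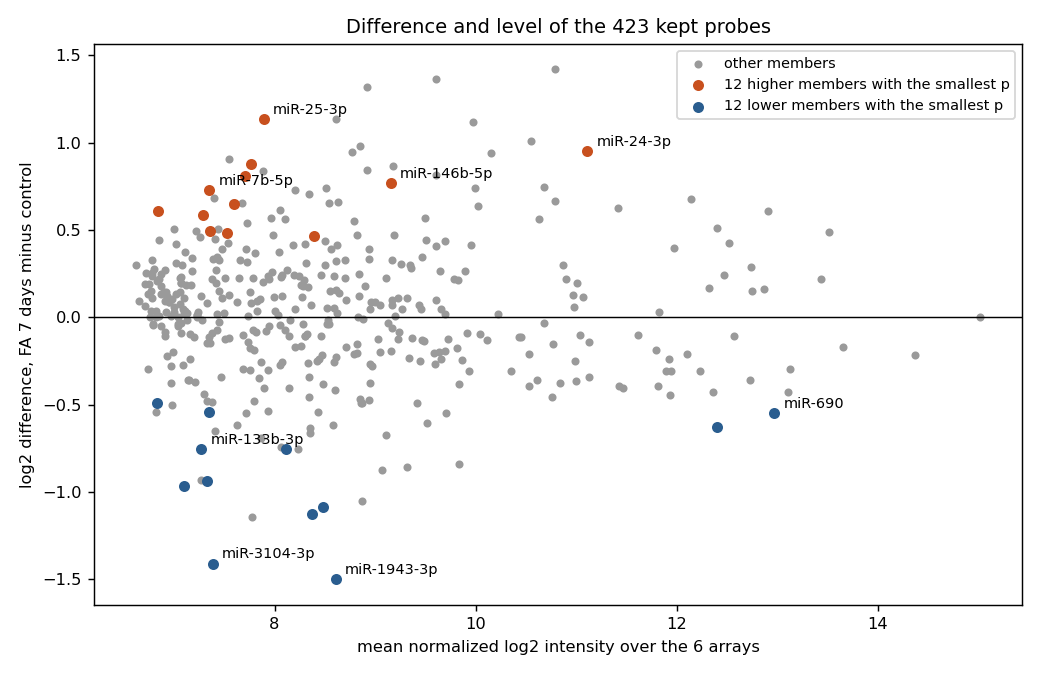
Log2 difference (vertical axis, FA 7 days minus control) of each of the 423 kept probes against its mean normalized log2 intensity over the 6 arrays (horizontal axis). Orange and blue points are the 12 probes with the smallest unadjusted p in each direction; 0 probes passed the test, and the spread runs from -1.50 to 1.42 around a median of 0.04.

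Some arrays stood apart before any comparison. Over the tested probes, control replicate 2 had a root mean square deviation of 0.913 and FA 7 days replicate 3 one of 0.682 from the mean of the other arrays without this pair, against 0.265 to 0.470 on the remaining arrays. Control replicate 2 held the lowest of the 6 values for 131 of the 423 probes (31.0%) and the highest for 108 (25.5%). Each array also carries the probe set in 2 copies, blocks 1 to 18 and blocks 19 to 36, with 2 spots of a probe in each. On FA 7 days replicate 1, blocks 2 and 3 were almost dark, with a median log2 ratio of the first over the second copy of -5.28 and -4.41, and block 5 was dimmer at -1.23. For miR-29a-3p, an abundant glial and neuronal miRNA, the 4 spots of that array read 43.0 and 1646 in block 2 and 5560 and 4357 in block 20. These blocks touch 68 of the 423 probes. On FA 7 days replicate 3 the ratio reached 1.24 for block 17 over block 35, and on the control arrays all ratios lay between -0.94 and 0.21. In blocks 1 to 6 the first copy was dimmer on every control array. The ratios there were -0.94 to -0.66, -0.55 to -0.14 and -0.94 to -0.45 on control replicates 1, 2 and 3. They were -0.50 to -0.0048 on FA 7 days replicate 2 and 0.07 to 0.21 on FA 7 days replicate 3. All 4 spots were averaged here. Leaving out the spots of dim blocks, an alternative chosen after seeing the data, moved the differences of the 68 probes by a median of 0.14, against -0.03 for the other 355, and turned the sign of 10 of the 68 and 23 of the 355. This alternative also dropped spots of 23 of the 423 probes on FA 7 days replicate 3 and of 29 on FA 1 day replicate 2. The 355 were therefore not all untouched. The count past the test was 0 in this alternative too.

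**Figure D2:**
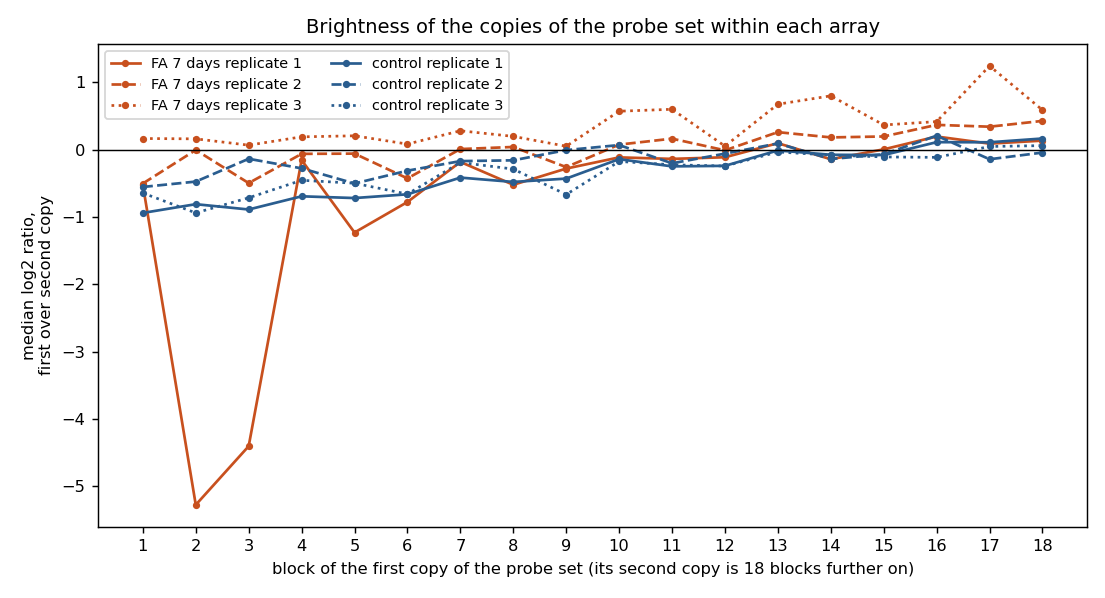
Median log2 ratio of the first over the second copy of the probe set (vertical axis) for each of the 18 block pairs (horizontal axis), with a line per array, FA 7 days in orange and control in blue. Blocks 2 and 3 of FA 7 days replicate 1 lie at -5.28 and -4.41, and the ratio of FA 7 days replicate 3 reaches 1.24.

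Of 10 kept miRNAs of inflammation and tissue stress, 0 passed the test. In FA 7 days 4 were higher on all arrays, against 41 of the 462 tested (8.87%), and the other 6 overlapped. miR-146b-5p, which with its relative miR-146a-5p is known to restrain NF-κB signalling, had log2 values of 9.59, 9.48 and 9.54 in FA 7 days, against 9.16, 8.25 and 8.92 in control. The FA 7 days arrays lay within a narrow band above all control arrays, and the difference was 0.77 ± 0.24 (SE; unadjusted p = 0.012, limma adjusted p = 0.701), or 0.50 without control replicate 2. Its close relative miR-146a-5p overlapped, with 9.18, 8.76 and 9.38 in FA 7 days and 9.20, 8.79 and 8.33 in control, and differed by 0.61 in the first copy of the probe set and -0.03 in the second. miR-21-5p, which rises in many injured tissues, had 8.62, 8.72 and 8.54 in FA 7 days and 8.40, 7.88 and 8.21 in control. The groups did not touch, and the difference of 0.47 ± 0.19 was 0.33 without control replicate 2. The other arm of that hairpin, miR-21-3p, differed by 0.0038 ± 0.36. miR-210-3p, the miRNA that low oxygen induces, had 7.79, 7.65 and 7.86 in FA 7 days and 7.32, 7.10 and 7.43 in control, again without overlap. Its difference was 0.48 ± 0.19, and 0.39 without control replicate 2. Of the 10 kept miRNAs of the inflammation and stress list, 7 lay above 0 and 3 below, with a median of 0.25. Over all tested, 270 of 462 lay above 0, with a median of 0.06. Of the 10, 3 had an unadjusted limma p under 0.05, all of them higher, against 14 of the 462 (3.03%), and 0 passed the test. The median of the list was 0.28 without control replicate 2, 0.11 without control replicate 3 and 0.16 without FA 7 days replicate 3. miR-155-5p, the induced miRNA of activated macrophages and lymphocytes, was not bright enough to be kept, nor was miR-147-3p.

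Other probes among the 12 higher ones are known from neurons or from dividing cells, and none of them passed the test. miR-7b-5p, abundant in neuroendocrine cells and some neurons, had 7.70, 7.90 and 7.54 in FA 7 days and 7.05, 6.53 and 7.39 in control. All FA 7 days arrays lay above all control arrays, and the difference was 0.73 ± 0.24 (0.50 without control replicate 2, 0.76 without the dim block that holds 2 of its spots). The abundant miR-7a-5p, known from forebrain progenitors for its action on the dopaminergic fate of bulb interneurons, differed by -0.14 ± 0.16 although it shares 22 of 23 bases. miR-25-3p, of the miR-106b cluster known from neural progenitors, had 8.26, 8.93 and 8.19 in FA 7 days and 7.77, 6.30 and 7.91 in control. Its difference of 1.13 ± 0.41 was 0.62 without control replicate 2, on which the probe was not detected. miR-24-3p, which acts on cell cycle and apoptosis genes, had 11.35, 11.63 and 11.77 in FA 7 days and 11.16, 9.59 and 11.16 in control. That is 0.95 ± 0.39, and 0.43 without control replicate 2, the array far below the rest. miR-149-5p, from within the span of the glypican gene Gpc1, had 8.13, 8.47 and 8.01 in FA 7 days and 7.65, 6.49 and 7.83 in control, a difference of 0.88 ± 0.33 (0.46 without control replicate 2).

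A pair of miRNAs with the seed CAGUGCA, known to repress the DNA methyltransferase gene Dnmt1, also lay higher. miR-152-3p had 8.18, 8.22 and 7.92 in FA 7 days and 7.49, 6.60 and 7.82 in control, a difference of 0.81 ± 0.31 (0.46 without control replicate 2). miR-148a-3p had 7.67, 7.88 and 7.18 in FA 7 days and 7.10, 6.81 and 7.07 in control, a difference of 0.58 ± 0.25 (0.49 without control replicate 2). In both the groups did not overlap, whereas miR-148b-3p, with the same seed, overlapped at 9.40, 9.38 and 9.46 in FA 7 days and 9.10, 8.62 and 9.59 in control. On control replicate 3 the 4 spots of miR-148a-3p read 68, 111, -22 and 86, so a negative spot lowered its value there. Leaving out that spot alone was not tested. miR-148a-3p differed by 0.47 in the first copy of the probe set and by 0.69 in the second, which holds that spot. miR-181a-1-3p, the passenger arm of a miR-181 hairpin, had 7.27, 7.22 and 6.95 in FA 7 days and 6.69, 6.18 and 6.73 in control, where it was detected on 2 of 3 arrays. It differed by 0.61 ± 0.20 (0.43 without control replicate 2). On control replicate 3 its 4 spots read 48, 52, -39 and 67. The difference was 0.50 in the first copy and 0.74 in the second, which holds the negative spot. The smallest unadjusted p of all, 0.0075, belonged to miR-1949, with 7.89, 7.67 and 8.21 in FA 7 days and 7.40, 7.12 and 7.29 in control, a difference of 0.65 ± 0.19. miR-151-3p followed, at 7.62, 7.69 and 7.52 in FA 7 days and 7.16, 7.01 and 7.17 in control, a difference of 0.50 ± 0.16. These were the least bound to control replicate 2, with 0.57 and 0.44 without it. In all 12 higher probes named here that array was nevertheless the lowest of the 6, as it was in 34 of the 39 probes whose FA 7 days arrays all lay higher.

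**Figure D3:**
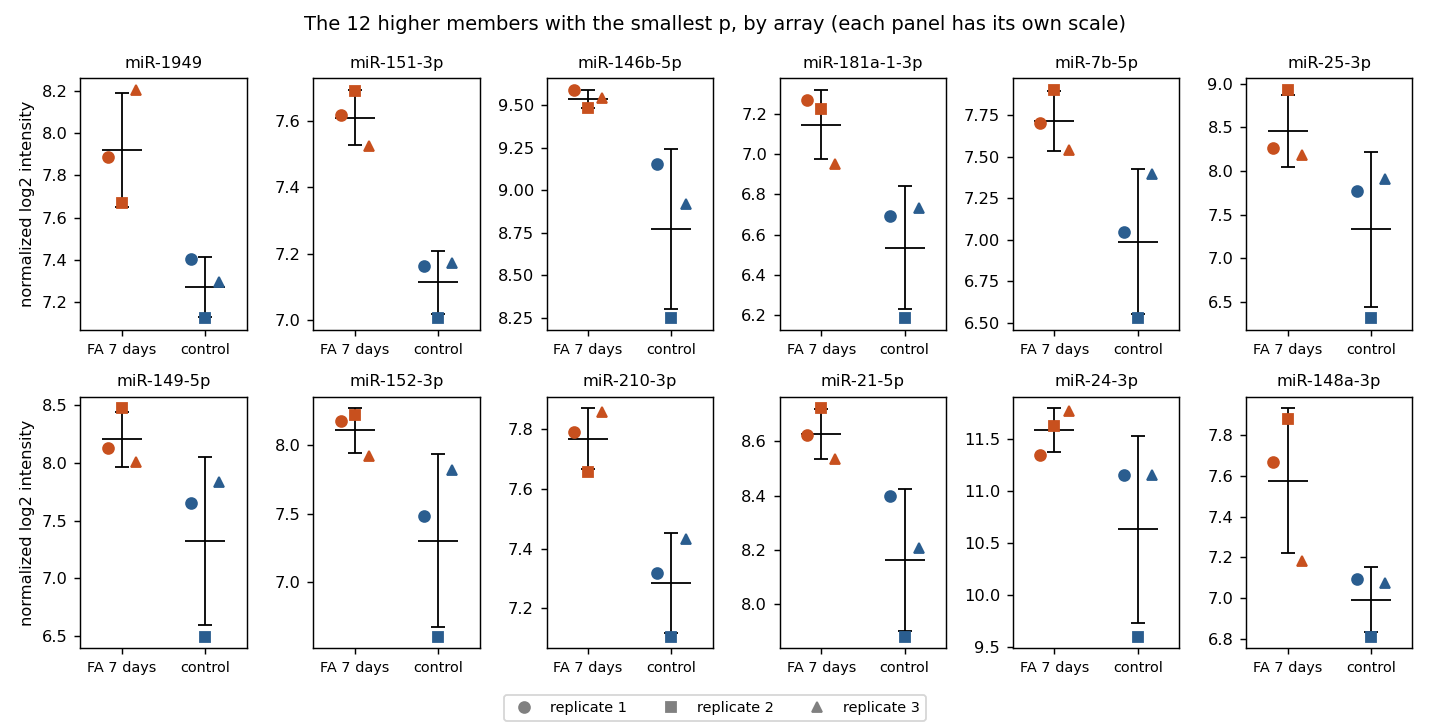
Normalized log2 intensity on each array of the 12 probes of smallest unadjusted p among those higher, FA 7 days left and control right, with the mean and SD of 3 arrays; each panel has its own scale. FA 7 days lies above control on all arrays of each panel, and control replicate 2 (blue square) is the lowest point in all 12.

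Among the lower probes, several had high values on control replicates 1 and 2 but not on control replicate 3. miR-3104-3p had 6.54, 6.47 and 7.04 in FA 7 days and 8.44, 9.10 and 6.73 in control, so that control replicate 3 lay inside the FA 7 days range. It was kept through control, being detected on 1 of 3 FA 7 days arrays, so its level there is mostly background. Its difference was -1.41 ± 0.52, and -0.91 without control replicate 2. Without control replicate 3, the lowest control array, it was -2.09 with an adjusted p of 0.0335, the 1 probe under the threshold when a single array was left out, and a value set against mostly undetected arrays. miR-1943-3p had 7.74, 7.61 and 8.23 in FA 7 days and 11.06, 9.48 and 7.54 in control, a difference of -1.50 ± 0.71 that was -0.65 without control replicate 1 and -2.41 without control replicate 3. On control replicate 3 its 4 spots read 145, 147, -67 and 156, so a negative spot lowered its value there. miR-1947-3p had 6.80, 6.59 and 7.19 in FA 7 days and 8.18, 8.19 and 7.02 in control, a difference of -0.94 ± 0.32, and -0.74 without control replicate 2. miR-296-5p, from the imprinted Gnas region, had 6.62, 6.38 and 6.84 in FA 7 days, where it was detected on 1 of 3 arrays, and 7.70, 8.39 and 6.65 in control. The difference of -0.97 ± 0.39 was -0.56 without control replicate 2. miR-299-5p, of the imprinted Dlk1-Dio3 cluster, had 7.50, 7.59 and 8.33 in FA 7 days and 9.29, 9.71 and 7.81 in control, a difference of -1.13 ± 0.50 (-0.74 without control replicate 2). On the FA 1 day arrays miR-3104-3p lay at 6.41 to 6.78 and miR-1943-3p at 7.60 to 7.93, near control replicate 3.

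The other lower probes had smaller differences, and in some the groups did not overlap. miR-133b-3p, a muscle miRNA also described in dopamine neurons, had 6.97, 6.74 and 6.98 in FA 7 days and 7.55, 8.34 and 7.06 in control. The groups did not overlap, and the difference was -0.76 ± 0.30 (-0.41 without control replicate 2). Its relative miR-133a-3p also lay apart, with 6.64, 6.47 and 6.55 in FA 7 days, detected on 1 of 3, and 6.82, 7.81 and 6.66 in control, a difference of -0.54 ± 0.29 (-0.19 without control replicate 2), while the defining muscle probes miR-1a-3p and miR-206-3p were too dim to be kept. miR-690, the brightest of the lower probes, had 13.03, 12.78 and 12.28 in FA 7 days and 13.24, 13.40 and 13.10 in control, without overlap, a difference of -0.55 ± 0.22 that was -0.34 without FA 7 days replicate 3. miR-709 had 12.51, 12.39 and 11.35 in FA 7 days and 12.78, 12.84 and 12.51 in control, a difference of -0.63 ± 0.32, or -0.26 without FA 7 days replicate 3. miR-204-3p had 7.36, 7.58 and 8.28 in FA 7 days and 8.80, 8.61 and 8.07 in control, a difference of -0.75 ± 0.28. It has spots in a dim block of FA 7 days replicate 1, and without the spots of dim blocks the difference was -0.59. On control replicate 1 the 4 spots of miR-204-3p read 409, 411, 611 and 7, so a dim spot lowered its value there. Leaving out that spot alone was not tested. miR-3098-3p (-1.09 ± 0.43), miR-361-3p (-0.54 ± 0.27) and miR-324-3p (-0.49 ± 0.24) completed the 12. The last 2 stood at -0.26 and -0.22 without control replicate 2. On control replicate 3 the 4 spots of miR-3098-3p read 125, 130, 1882 and 139, so a single spot made that array its highest, and with the median of spots the difference was -0.55. The spots of miR-324-3p on that array read 17, 24, 123 and 29, and it was detected on 1 of 3 FA 7 days arrays. miR-3078-3p was kept through control, with 3 of 3 arrays detected there and 0 of 3 in FA 7 days. Its groups overlapped, at 6.45, 6.50 and 6.82 in FA 7 days and 6.60, 7.14 and 6.93 in control, with means of 6.59 and 6.89, a nominal bound of at least 1.14-fold lower and an adjusted p of 0.701.

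**Figure D4:**
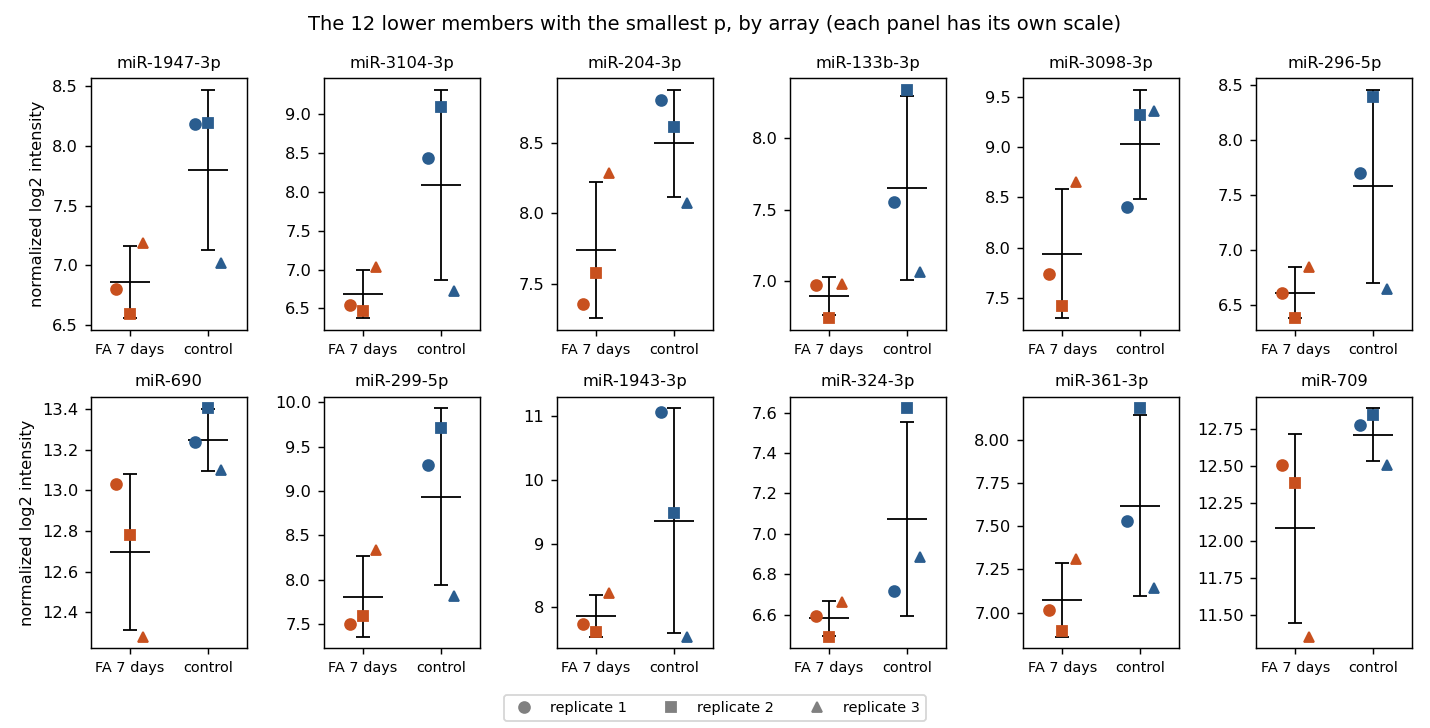
Normalized log2 intensity on each array of the 12 probes of smallest unadjusted p among those lower, FA 7 days left and control right, with the mean and SD of 3 arrays; each panel has its own scale. Control replicates 1 and 2 are high in miR-299-5p, miR-296-5p, miR-1947-3p and miR-3104-3p, where control replicate 3 (blue triangle) lies within the range of the FA 7 days arrays, and in miR-1943-3p, where it lies below them. A spot of miR-1943-3p on control replicate 3 read -67 and lowered that point.

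The copies of the probe set gave a second reading of the same RNA on the same array. The difference had the same sign in blocks 1 to 18 alone and in blocks 19 to 36 alone for 326 of the 423, with a correlation of 0.73 across probes (a description, since both copies share the array). miR-146b-5p differed by 0.89 in the first copy and 0.69 in the second, and miR-3104-3p by -1.52 and -1.31. miR-1949 differed by 0.89 and 0.35, miR-210-3p by 0.60 and 0.30, miR-24-3p by 1.14 and 0.71, and miR-152-3p by 0.99 and 0.69. Of the 12 higher probes, miR-148a-3p, miR-181a-1-3p, miR-151-3p and miR-25-3p differed more in the second copy and the others in the first. Spots of a probe on 1 array had a median SD of 0.11 to 0.16 on the 6 arrays, against a median SD between arrays of 0.33 in FA 7 days and 0.35 in control.

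Groups of related miRNAs gave counts in the same terms, with 0 members past the test in each list. Of the immune and blood lists, leukocyte miRNAs lay above 0 in 4 of 6, with a median of 0.54. Hematopoietic miR-142-5p had 7.82, 7.76 and 8.43 in FA 7 days and 7.51, 6.48 and 7.30 in control, and differed by 0.91 ± 0.40 (unadjusted p = 0.048; 0.60 without control replicate 2). miR-142-3p, from the same hairpin, differed by 1.32 ± 0.73, or 0.44 without that array, and myeloid miR-223-3p by -0.14 ± 0.59. The leukocyte median was 0.12 without control replicate 2. Of the 3 red blood cell miRNAs kept, 1 lay above 0 and 2 below, with a median of -0.21 that was 0.21 without control replicate 2 and 0.15 with median scaling. Vascular miRNAs lay above 0 in 4 of 6 (median 0.27, and 0.10 without control replicate 2), with miR-221-3p at 9.76, 9.92 and 9.74 in FA 7 days and 9.53, 9.08 and 9.59 in control, without overlap. Smooth muscle miR-145-5p did not overlap either, with 8.07, 8.69 and 7.91 in FA 7 days and 7.78, 7.67 and 7.82 in control. Its difference of 0.47 ± 0.22 was 0.24 without FA 7 days replicate 2, and that of miR-221-3p, 0.41 ± 0.19, was 0.25 without control replicate 2. The vascular members below 0 were miR-143-3p, at -0.39 ± 0.28, and the other arm of the miR-145 hairpin, miR-145-3p, at -0.11 ± 0.22. Their groups overlapped. The 3 mesenchymal miRNAs kept, both arms of miR-199a and miR-214-3p, had differences of 0.11 to 0.14, each within its SE. Of these, miR-199a-3p and miR-214-3p turned below 0 with median scaling of the arrays.

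In the neural lists, neuron-enriched miRNAs lay above 0 in 9 of 14 with a median of 0.14, which was -0.0033 without control replicate 2 and 0.49 without FA 7 days replicate 3. The 3 oligodendrocyte miRNAs, known for driving myelinating cells to mature, all lay above 0, at a median of 0.41 (0.16 without control replicate 2). Their differences were 0.65 ± 0.47 for miR-219-5p, 0.41 ± 0.33 for miR-338-3p and 0.31 ± 0.25 for miR-338-5p, the last without overlap. miR-219-5p was detected on 2 of 3 control arrays. Without control replicate 2 it stood at 0.11, and miR-338-5p at 0.19. The miR-132 and miR-212 pair, which CREB and neuronal activity induce, had 4 of 4 kept arms below 0, at a median of -0.16. That median was 0.04 without control replicate 3 or without FA 7 days replicate 3, and miR-212-3p itself stood at -0.21 ± 0.29. In the miR-183 cluster of sensory neurons 4 of 4 lay below 0, at a median of -0.37 and between -0.24 and -0.43. Its median deviation from the mean of all arrays was -0.06, -0.20 and -0.83 on FA 7 days replicates 1, 2 and 3, against -0.21, 0.10 and 0.12 on the control arrays, so the low values sat on FA 7 days replicate 3. Without that array the median was -0.15, and the abundant miR-182-5p, at 12.59, 12.33 and 11.51 in FA 7 days and 12.47, 12.66 and 12.59 in control, lay below all control arrays on FA 7 days replicates 2 and 3 and differed by -0.43 ± 0.27 (-0.12 without FA 7 days replicate 3). The miR-200 family, which acts in olfactory neurogenesis, had 2 of 8 above 0 and a median of -0.14, or 0.05 without FA 7 days replicate 3, with miR-200b-5p lower on all arrays (8.80, 8.69 and 8.37 in FA 7 days, 8.89, 8.82 and 9.62 in control, a difference of -0.49 ± 0.33 and of -0.24 without control replicate 3). For the choroid plexus and pigment epithelium list, the 2 kept probes were the arms of miR-204, at 0.95 ± 0.57 for miR-204-5p (0.21 without control replicate 2) and -0.75 ± 0.28 for miR-204-3p.

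The families defined by seed or cluster varied more. The let-7 family, whose members promote differentiation, had 8 of 9 above 0 at a median of 0.63, between -0.19 and 0.75. Without control replicate 2 that median was -0.0042, and the family's median deviation on this array was -1.19, against -0.40 to 0.64 on the other 5. let-7c-5p had 11.77, 11.35 and 12.05 in FA 7 days and 11.55, 10.33 and 11.42 in control, with overlapping groups, and differed by 0.63 ± 0.33 (0.24 without control replicate 2). The miR-181 family had 5 of 6 above 0 at a median of 0.65, or 0.14 without control replicate 2. The largest difference of all 423 probes was in this family: miR-181a-5p had 10.66, 11.45 and 12.39 in FA 7 days and 11.42, 7.38 and 11.45 in control, so the 1.42 ± 1.00 came with overlapping groups and a single low control. Of the 68 probes in dim blocks of FA 7 days replicate 1 it moved most, to 1.73 without the spots of dim blocks. It differed by -0.02 in the first copy and 1.66 in the second. miR-181c-5p differed by 0.68 ± 0.33 (0.40 without FA 7 days replicate 2, 0.41 without control replicate 2). The miR-148 and miR-152 seed had 3 of 3 above 0 at a median of 0.58, and 0.46 without control replicate 2, which is closer than in the let-7 or miR-181 lists. The miR-17 clusters, which promote proliferation, had 5 of 8 above 0 (median 0.15, 0.04 without control replicate 2, 0.55 without FA 7 days replicate 3), among them miR-19b-3p at 0.98 ± 0.53 and miR-106a-5p at 0.39 ± 0.23. Without control replicate 2 these were 0.27 and 0.20, and miR-106a-5p differed by 0.94 in the first copy and 0.07 in the second. The miR-23, miR-27 and miR-24 clusters had 4 of 6 (0.28, 0.14 without control replicate 2), with miR-23b-3p at -0.44 ± 0.25. The miR-29 and miR-30 families had 7 of 10 (0.07, 0.02 without control replicate 2). In these, miR-29c-3p was higher on all arrays, with 10.46, 10.35 and 11.06 in FA 7 days and 10.33, 8.42 and 10.29 in control, and miR-30b-5p lower on all, with 11.42, 11.09 and 11.29 in FA 7 days and 11.45, 12.05 and 11.51 in control. Without control replicate 2 the difference of miR-29c-3p was 0.31, against 0.94 with it, and that of miR-30b-5p -0.21, against -0.41. Without dim blocks miR-30b-5p overlapped, with 12.01 on FA 7 days replicate 3, and differed by -0.24. The large imprinted Dlk1-Dio3 cluster had 35 of 52 above 0 (median 0.08) and the Sfmbt2 cluster 27 of 41 (0.06), against a median of 0.06 over all probes tested. With median scaling they stood at -0.04 and -0.07, against -0.05 over all. The Dlk1-Dio3 median was 0.19 when control replicate 3 was left out, and -0.00070 when FA 7 days replicate 1 was. The Sfmbt2 median was 0.25 without control replicate 2 and -0.13 without FA 7 days replicate 3. In the Dlk1-Dio3 cluster miR-136-5p had 10.12, 10.42 and 10.33 in FA 7 days and 9.74, 7.06 and 9.98 in control, without overlap, a difference of 1.37 ± 0.65 (0.43 without control replicate 2). The muscle and surface epithelium list had 1 of 3 above 0 (-0.54, -0.19 without control replicate 2), and the ciliated cell and p53 list 1 of 4 (-0.09, 0.10 without both arrays that stand apart). The 3 kept probes with the miR-25 and miR-92 seed lay above 0, at a median of 0.11 that was -0.07 with median scaling, 0.36 with control replicate 3 left out and 0.51 with FA 7 days replicate 3 left out.

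**Figure D5:**
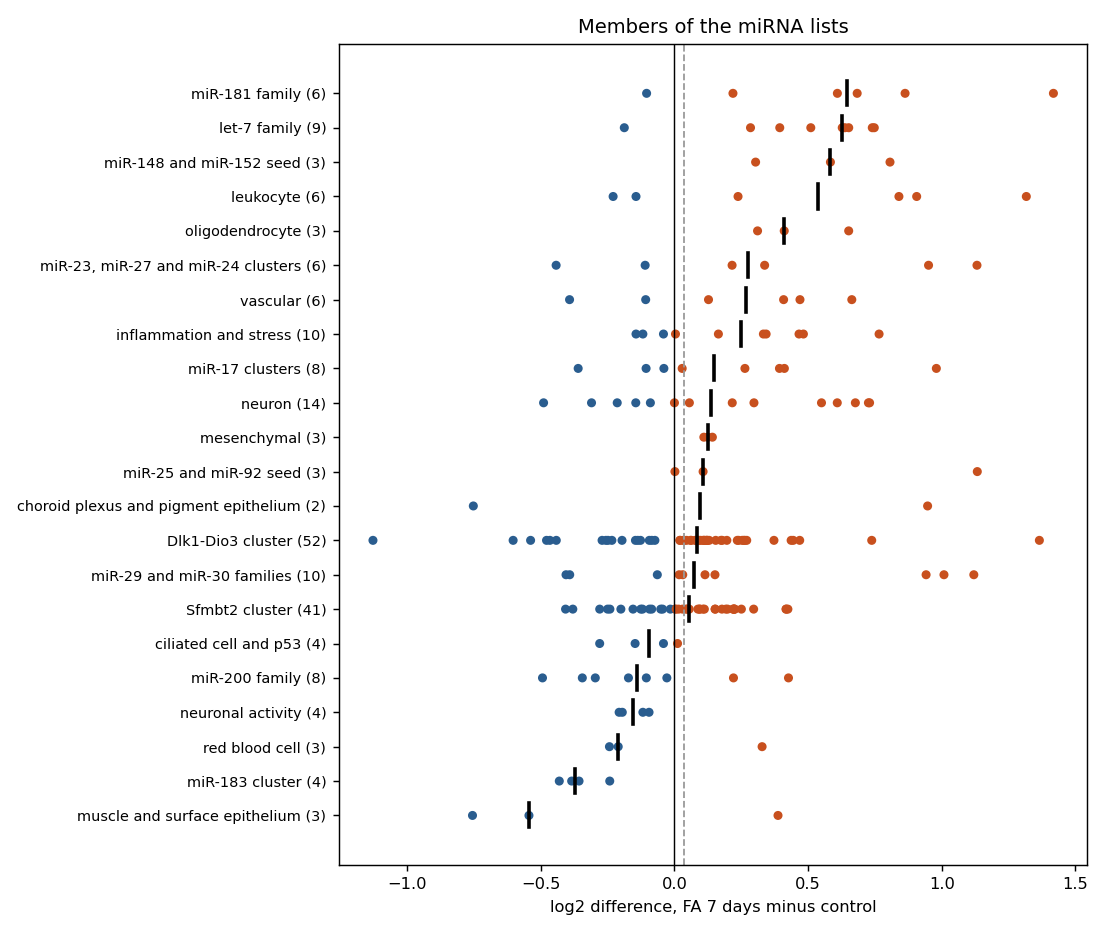
Log2 difference, FA 7 days minus control, of each kept member (point) of 22 lists, with the number of members in brackets, the list median as a black bar and the median of the 423 as a dashed line; orange points lie above 0 and blue points below. The medians run from 0.65 for the miR-181 family to -0.54 for the muscle and surface epithelium list, and 0 members passed the test.

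Shared seeds, hairpins and neighbours were then set beside the differences. The 327 probes with a sequence held 271 seeds, and 33 seeds were shared by 2 or more probes, 89 in all. In 18 of the 33 all members lay on the same side of 0, 13 above and 5 below, with miR-146a-5p and miR-146b-5p, and miR-221-3p and miR-222-3p, among those above. The seed CACUGAG, shared by miR-1947-3p and miR-674-5p, was among those below, at -0.94 and -0.10. Of 88 hairpins with both arms kept, both lay above 0 in 32, both below in 18, and 38 were opposed, with a Pearson correlation of 0.09 across hairpins (a description). Besides miR-204, let-7d was opposed, at 0.75 ± 0.68 for the 5p and -0.66 ± 0.35 for the 3p arm. Neighbours of named probes within 10 kb were sought among the kept probes with a matched sequence, and lay on both sides of 0. Beside miR-181a-1-3p at 0.61, miR-181a-5p differed by 1.42 and miR-181b-5p by 0.86 ± 0.50. miR-324-5p differed by -0.55 ± 0.38 beside miR-324-3p at -0.49, and miR-361-5p by -0.21 ± 0.29 beside miR-361-3p at -0.54. Beside miR-25-3p at 1.13, miR-93-5p differed by 0.26 ± 0.44, miR-106b-3p by 0.31 ± 0.19 and miR-106b-5p by -0.36 ± 0.22, all 4 from the same stretch of Mcm7. The other arm of its hairpin, miR-25-5p, differed by 0.0012 ± 0.20. Beside miR-24-3p at 0.95, miR-27b-3p on chromosome 13 differed by 1.13 ± 0.66 and miR-23a-3p on chromosome 8 by 0.22 ± 0.24. The other arms, miR-24-1-5p and miR-24-2-5p, differed by -0.11 ± 0.21 and 0.34 ± 0.19. In the list of these clusters miR-23b-3p, which was not among the neighbours found by coordinates, differed by -0.44 ± 0.25. miR-298-5p, next to miR-296-5p, differed by 0.24 ± 0.24, and its other arm miR-296-3p by 0.02 ± 0.16. miR-151-5p, the other arm of miR-151-3p, differed by 0.09 ± 0.19. Around miR-299-5p, miR-379-5p differed by 0.12 ± 0.40 and miR-411-5p by 0.12 ± 0.37.

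The base composition of the miRNAs moved with the difference. Across the 327 sequences Pearson's correlation of the difference with GC content was -0.24 (a description, with no test), and the median difference was 0.12 in the lowest, 0.10 in the middle and -0.02 in the highest class of GC content. The 11 lower probes with a sequence had a median GC content of 60.9%, the 10 higher ones 48.8% and all 327 a median of 47.6%. The deviation of single arrays from the probe means correlated with GC content as well, at -0.35, -0.39 and 0.27 on FA 7 days replicates 1, 2 and 3 and at 0.27, 0.21 and -0.28 on control replicates 1, 2 and 3, so arrays of the same group ran in opposite directions. The part of GC content in the differences was not tested.

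The brightest kept probes overlapped for the most part. miR-124-3p was given the same value, 15.02, on every array by quantile normalization, and carries no comparison. miR-9-3p had 14.48, 14.48 and 13.84 in FA 7 days and 14.48 on 3 of 3 control arrays, a difference of -0.21 ± 0.20. miR-9-5p had 13.17, 13.24 and 13.24 in FA 7 days and 13.10, 11.69 and 13.03 in control, higher on all arrays, with a difference of 0.61 ± 0.34. miR-125b-5p differed by 0.49 ± 0.30, miR-125a-5p by 0.16 ± 0.23, miR-141-3p by -0.17 ± 0.24, miR-200a-3p by 0.22 ± 0.16 (without overlap), miR-200c-3p by -0.30 ± 0.21 and miR-720 by -0.43 ± 0.26.

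Set against FA 1 day, the FA 7 days arrays gave 0 of 462 probes past the test (0%), with a smallest adjusted p of 0.422. Both comparisons use the same FA 7 days arrays. miR-1949 had 7.19, 7.06 and 7.08 in FA 1 day and lay 0.81 ± 0.19 higher in FA 7 days. miR-7b-5p had 7.05, 6.76 and 7.05 in FA 1 day and lay 0.76 ± 0.24 higher, and miR-146b-5p had 8.98, 8.63 and 8.74 and lay 0.75 ± 0.24 higher. These probes were chosen for high values on the shared FA 7 days arrays, so these values are a description. miR-148a-3p, with 7.89, 7.87 and 7.25 in FA 1 day, differed by -0.10 ± 0.25, and miR-152-3p by 0.08 ± 0.31. Of the lower probes, miR-3104-3p differed between FA 7 days and FA 1 day by 0.09 ± 0.52, miR-1943-3p by 0.09 ± 0.71 and miR-204-3p by 0.14 ± 0.28.

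How many probes lay higher or lower depended on the scaling of the arrays. The median difference of the 462 probes was 0.06 with quantile normalization, -0.02 with cyclic loess, -0.05 with median scaling and -0.09 with no normalization. The 41 higher and 8 lower probes without overlap became 26 and 14 with cyclic loess, 27 and 25 with median scaling, and 5 and 31 with no normalization, while the deposited ratios gave 45 and 10. At an unadjusted p under 0.05 the split of 14 higher and 7 lower became 11 and 8, 10 and 16, and 3 and 22 in the same order of settings, and 11 and 10 with the deposited ratios. The 24 named probes kept their directions under all of these, and 0 probes passed the test under any of them. The 24 were chosen for their small p on these same arrays, so their kept directions are a description.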

How the data were processed

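The authors deposited, per the file headers, a raw table of 12312 spots (2671 probes) on 9 arrays, with each spot's foreground intensity before and after subtraction of its background, and a value table of ratios. The deposited ratio of a probe equals, within 1% for 100% of values, the median of its spots over 1 factor per array, so its scale is linear; non-positive values are blank, and its column medians run from 0.0196 to 0.16. Total RNA was labelled with Hy3 from an Exiqon miRCURY kit, per the labels' protocols; the scanner and its software are not named there.

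From the intensities, each spot was corrected with limma's normexp (offset 50; limma 3.58.1, R 4.3.3), the 4 spots of a probe were averaged, and 1084 miRNA probes were quantile normalized and put on a log2 scale. Quantile normalization hides a shift shared by most miRNAs. A group-means model was fitted to all 9 arrays (lmFit, eBayes; two-sided; Benjamini-Hochberg over 462 probes; threshold 0.05). The code was also run on simulated data with independent noise and effects larger than any difference found here. Those data held no dim blocks and no arrays that stand apart, so they do not show how the fit handles these arrays. Over the 351 mouse probes detected on all 9 arrays, the median foreground minus background was 224 to 441 per array. The median background was 35 to 49, and 398 to 520 mouse probes were detected per array. No pair of arrays shared the foreground of more than 10.7% of spots. The number of arrays limits the precision.

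The members and lists were chosen with earlier results of these data known. Named probes were drawn from the 12 higher and 12 lower kept probes with the smallest unadjusted p, the 2 members of each list with the smallest p, the 10 brightest, probes undetected in 1 group, and the other arms of named hairpins. List members whose difference is not given above include miR-128-3p (0.68 ± 0.37), let-7i-5p (0.39 ± 0.22), miR-183-3p (-0.38 ± 0.25) and miR-34c-5p (-0.28 ± 0.24). They also include miR-466b-5p (0.42 ± 0.20), miR-669e-3p (0.42 ± 0.25) and miR-3107-5p (0.33 ± 0.19). Some other arms are left out. Other miRNAs named beside these sets (the copies, neighbours, relatives and list members shown for contrast) were chosen after their values were seen. Since 0 probes passed, values are given with no verdict on change. Sequences and coordinates are from RefSeq (GRCm38.p6), matched by name. Alternatives were the scaling, the background, the spots, the filter, the arrays in the fit and the replicate number as a block; those on dim blocks and single copies of the probe set were chosen after seeing the data.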

Additional observations from a re-analysis of the deposited data

How the results depend on the processing

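The count of probes past the test was 0 in all alternatives run, except that it was 1 (miR-3104-3p) without control replicate 3, so that leaving out 1 array gave 0 to 1. The 21 probes at an unadjusted p under 0.05 became 62 with all 1027 mouse probes, 11 with only the 6 arrays in the fit, 75 with array weights and 43 without control replicate 2 and FA 7 days replicate 3 together; leaving out 1 array gave 8 (without FA 7 days replicate 2) to 66 (without control replicate 3), with 12 and 52 without FA 7 days replicates 1 and 3 and 11 without control replicate 2. The 49 without overlap became 101 with all mouse probes, 205 without both arrays, 32 with blocks 1 to 18 only, and 72 to 166 with 1 array left out, since fewer arrays overlap less often. Same-numbered arrays of the groups deviated from their group means with correlations of -0.10, -0.51 and -0.58, and the other pairs with -0.27 to 0.55. Deviations within a group of 3 arrays depend on each other, so these values cannot show whether arrays shared a slide or day. With the replicate block in limma, 2 probes had an unadjusted p under 0.05 and 0 passed. Of 57 named differences, 7 turned in sign in 29 results, and the 24 named as higher or lower kept theirs throughout. As those 24 were chosen on the same arrays, this is a description. The differences of miR-199a-3p, miR-214-3p, miR-92b-3p and miR-451 turned to -0.0535, -0.113, -0.142 and 0.149 with median scaling and to -0.0923, -0.152, -0.181 and 0.111 with no normalization. With cyclic loess miR-92b-3p had -0.0287 and miR-451 0.0207, and with the deposited ratios miR-132-3p, miR-214-3p, miR-92b-3p and miR-451 had 0.00721, -0.0123, -0.0555 and 0.157. With array weights miR-214-3p, miR-92b-3p, miR-212-3p and miR-34b-3p had -0.0434, -0.145, 0.0622 and 0.0603, and without both arrays miR-214-3p, miR-92b-3p and miR-34b-3p had -0.0221, -0.0876 and 0.0981. Leaving out 1 array gave -0.262 to 0.165 for miR-132-3p (highest without FA 7 days replicate 1), -0.145 to 0.278 for miR-92b-3p (lowest without FA 7 days replicate 3), -0.0207 to 0.332 for miR-199a-3p and -0.299 to 0.148 for miR-34b-3p (turned without control replicate 2), and -0.363 to 0.0594 for miR-212-3p (highest without control replicate 3). Without dim blocks miR-132-3p had 0.103, in blocks 19 to 36 only 0.0625, and miR-92b-3p had -0.298 in blocks 1 to 18 only. The cause was not tested. Array weights stopped short of their convergence tolerance. At the median SE, the unadjusted 95% interval of a single probe reached about 0.63 to either side. That is not the limit of the adjusted test, in which differences up to 1.42 and down to -1.50 did not pass either.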

Other observations

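Probes with no mouse miRNA name were fitted in the same way for FA 7 days versus control. Of 351 such probes detected on all arrays of a group, 328 unnamed, 11 viral and 12 other controls, 0 passed the test after Benjamini-Hochberg adjustment over these alone, with limma's smallest adjusted p at 0.122 and 35 at an unadjusted p under 0.05.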
